A study of Drosophila melanogaster with 9 samples.

Results

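The proteins of the small (40S) subunit of the cytosolic ribosome were followed through their transcripts in larval wing discs of Drosophila melanogaster, the epithelial sacs from which the adult wing forms. The set held 38 of the 17471 genes counted, namely every gene whose symbol in the deposited tables is RpS followed by a digit, together with sta, which encodes the small-subunit protein RpSA. There were 3 Myc RNAi libraries (tsGAL80;tubG4/Myc RNAi), 3 Psi RNAi libraries (tsGAL80;tubG4/Psi RNAi) and 3 control libraries (tsGAL80;tubG4/+). Per the labels, all groups therefore carried the tubulin-GAL4 driver, which is active in nearly every cell of the larva, and the temperature-sensitive GAL80 that holds it in check, and the controls carried no hairpin. The names of the control count files refer only to a laboratory strain, so the driver in the controls rests on the labels. All larvae spent 4 days at 18 °C, where GAL80 is active, and 3 days at 25 °C per the labels, and the hairpins, a single line per target, acted for the 3 days ahead of dissection. Each library came from 60 pooled discs, taken in lots of 20. Separate crosses are not stated for the pools. The p-values therefore cover the variation among pools, which could in part be technical. The study's methods give a higher second temperature for crosses with this GAL80, and the labels give the larval stage in more than one way.

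The small subunit joins 18S ribosomal RNA with its set of proteins, binds the mRNA, finds the start codon and reads the code. In flies, loss of a single copy of many of these genes gives the Minute phenotype of slow growth and short bristles, and such cells are outcompeted by wild-type neighbours in wing discs. Myc is a transcription factor known for raising the expression of ribosomal protein and ribosome assembly genes in flies and mammals, and Psi is a nucleic acid-binding protein with KH domains, related to human FUBP1.

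Libraries held 26287040 to 34401160 read pairs counted in genes. Values in CPM are gene counts scaled to the TMM-adjusted library total, and so are relative to all mRNA of the disc. Psi stood at 74.7, 65.7 and 61.7 CPM in Psi RNAi, against 335, 322 and 323 CPM in controls. Myc stood at 132, 109 and 103 CPM in Myc RNAi, 107, 118 and 108 CPM in Psi RNAi, with 150, 147 and 139 CPM in controls. Both knockdowns lay below all controls in Myc. Its log2 fold change in Myc RNAi, -0.34 ± 0.09, missed the threshold of 0.01 in edgeR (adjusted p = 0.0146) and passed with the replicate number as a block (edgeR adjusted p = 0.00972) and in DESeq2 (adjusted p = 0.003, over 16 alternatives 0.00083 to 0.115). In Psi RNAi it was -0.39 ± 0.09 (edgeR adjusted p = 0.0214, DESeq2 adjusted p = 0.000853, over 16 alternatives 0.000853 to 0.181). Between Myc RNAi and Psi RNAi the Myc transcript differed by 0.05 ± 0.09 (edgeR adjusted p = 0.713). Summed over 10 wing disc genes (among them nub and vg), levels were 2352 to 2431 CPM in Myc RNAi, 2058 to 2311 CPM in Psi RNAi and 2176 to 2210 CPM in controls, so the labelled tissue was present throughout. Transcripts of 6 fat body genes summed to 801 to 2412 CPM in Myc RNAi, 252 to 6643 CPM in Psi RNAi and 686 to 10903 CPM in controls. Those of 8 gut and salivary gland genes summed to 482 CPM in Myc RNAi replicate 3 and 1601 CPM in Psi RNAi replicate 1, and to 3.69 to 38.0 CPM in the other 7 libraries. Those of 5 muscle genes summed to 63.6 to 105 CPM in Myc RNAi, 37.3 to 197 CPM in Psi RNAi and 44.9 to 82.8 CPM in controls, and those of 4 haemocyte genes to 98.8 to 208 CPM in Myc RNAi, 87.1 to 129 CPM in Psi RNAi and 164 to 364 CPM in controls.

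In control discs, 34 of the 38 genes were expressed at 10 CPM or more. Per kilobase of exon (RPKM, over the exonic bases of the reference gene models), these 34 ranged between 163 RPKM for RpS15Ab and 2976 ± 70 RPKM for sta (SD, n = 3), with a median of 1760 RPKM, and 28 of them lay between 1000 and 3000 RPKM. The highest after sta was RpS27A at 2613 ± 15 RPKM. The lowest after RpS15Ab were RpS14a at 618 ± 19 RPKM and RpS14b at 641 ± 30 RPKM, which encode the same protein. Read pairs that align to both copies are not counted, while the lengths include all exonic bases. The RPKM of such copies could thus be too low, and so could their ranks. The other 4 genes were almost silent: RpS19b was at 1.90 to 2.37 CPM and RpS5b at 0.229 to 0.484 CPM in controls, RpS10a had 0 to 4 pairs in any library and RpS28-like 0 or 1. RpS10a and RpS28-like failed the filter on low counts and were not tested, which left 36 members tested.

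**Figure D1:**
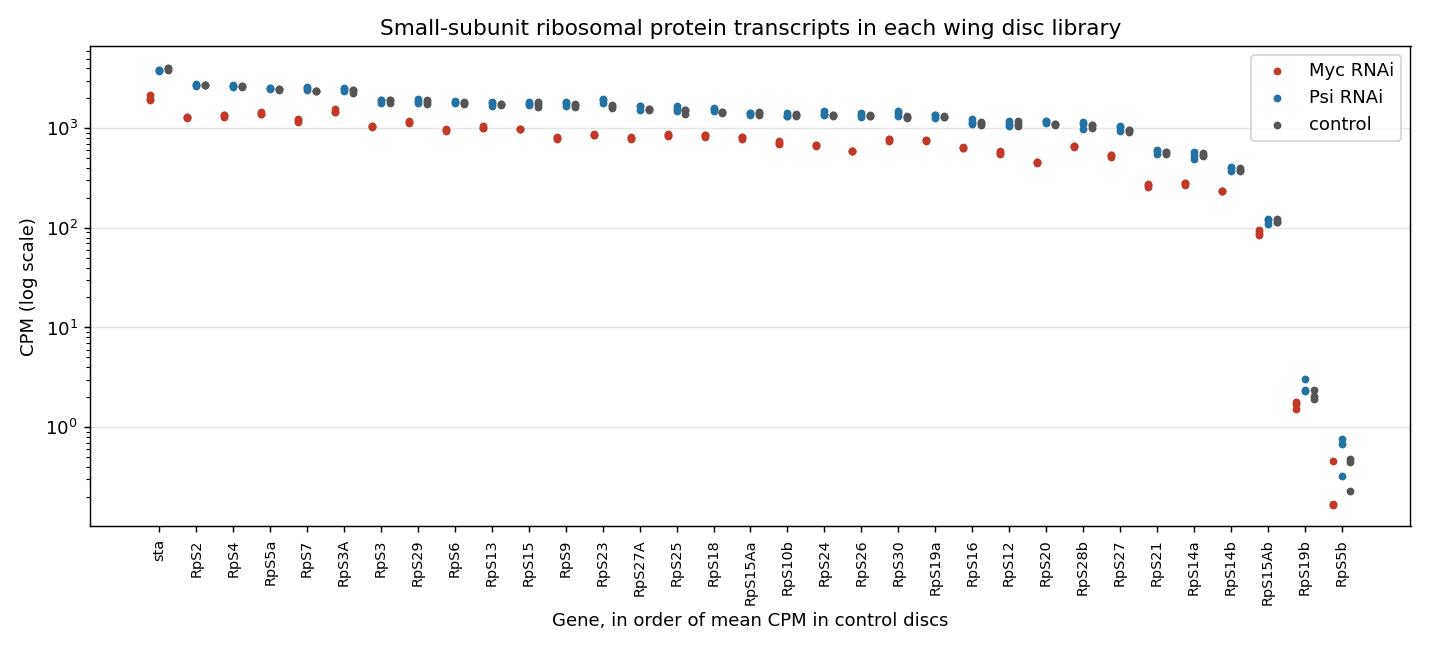
CPM of 33 of the 36 tested genes in each of the 9 libraries on a log axis, 1 point per library, with Myc RNAi, Psi RNAi and control points side by side for each gene. For the 31 genes drawn that had 10 CPM or more, all 3 Myc RNAi points lie below all 3 control points, whereas Psi RNAi and control points run at nearly the same height; RpS19b and RpS5b lie at the low end.

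The question of the first comparison was how Myc knockdown changed these transcripts. The set fell nearly as a block, and the median expressed member was left at 54.6% of its control level. RpS20, RpS26, RpS21, RpS9 and RpS2 fell most, to between 41.7% and 47.3% of control, and RpS15Ab, a copy of RpS15A that lies in a single exon, fell least among the expressed genes, to 75.8%. Of the 36 genes tested, 34 were lower and 0 higher at an edgeR adjusted p below 0.01, against 11.4% lower and 7.6% higher of all 9235 genes tested. In 35 of the 36 all Myc RNAi libraries lay below all controls, and in 0 above, against 24.3% and 21.7% of all genes. The median log2 fold change was -0.84 over the 36, against -0.03 over all genes. The 34 falls had edgeR adjusted p between 4.96e-08 and 0.00089. The 2 that did not pass were the almost silent RpS19b and RpS5b. In a whole disc, fewer cells of a type and less RNA per cell cannot be told apart.

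The 3 Myc RNAi libraries were close to each other in the medians of these genes. Set against the control mean of each gene, the 34 expressed genes had medians of -0.88, -0.87 and -0.86 on the log2 scale in the 3 Myc RNAi libraries, and every one of the 34 was below 0 in each. The members did not fall equally: their log2 fold changes had an SD of 0.17 over the 34 genes, whereas the median standard error of a single gene was 0.04. There were 5 below -1, 24 between -1 and -0.7, and 5 above -0.7. The order of levels was largely kept, with a Spearman correlation of 0.93 between mean RPKM in Myc RNAi and in control across the 34 genes, which share their lengths and libraries.

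**Figure D2:**
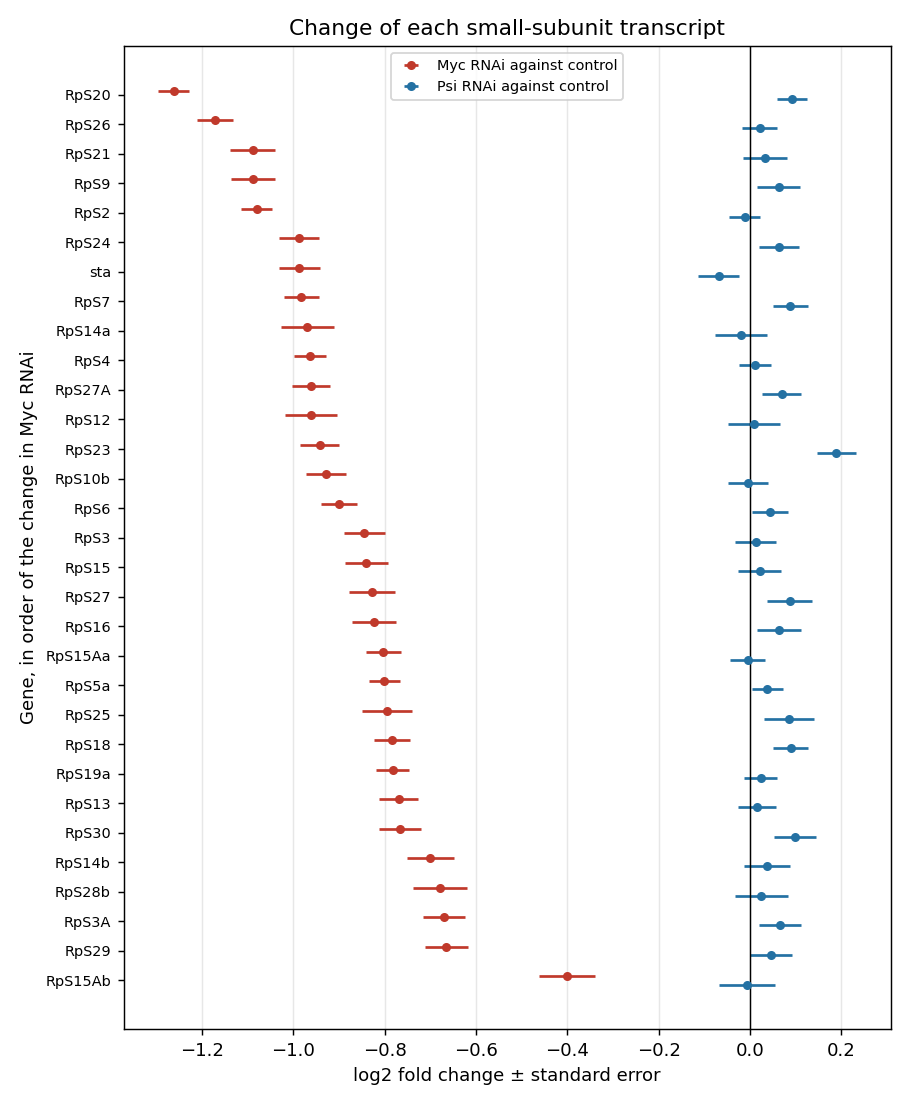
Log2 fold change (horizontal axis) with its standard error for 31 of the 34 genes at 10 CPM or more, ordered by the change in Myc RNAi, for Myc RNAi against control and Psi RNAi against control (n = 3 libraries per group). The Myc RNAi points run between -1.26 for RpS20 and -0.40 for RpS15Ab, and the Psi RNAi points between -0.07 for sta and 0.19 for RpS23.

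RpS20 fell most. It encodes a protein of the head of the subunit (uS10) and lies on 3R at 20822181 to 20823356. It was at 452, 461 and 460 CPM in Myc RNAi, against 1107, 1101 and 1085 CPM in controls. The groups were far apart, with a log2 fold change at -1.26 ± 0.03 (edgeR adjusted p = 4.96e-08). Its share of the summed level of all 38 genes was 1.59% ± 0.01 in Myc RNAi and 2.06% ± 0.02 in controls (SD, n = 3). Exons of CG17272 overlap those of RpS20 on the other strand.

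Among transcripts for proteins that line the mRNA entry channel, those of RpS2 (uS5) and RpS9 (uS4) fell more than that of RpS3 (uS3). RpS2, on 2L at 9896265 to 9897552, was at 1255, 1308 and 1287 CPM in Myc RNAi, against 2743, 2699 and 2696 CPM in controls (log2 fold change -1.08 ± 0.03, edgeR adjusted p = 6.04e-08). RpS9, on 3L at 9509793 to 9511531, was at 789, 817 and 781 CPM in Myc RNAi, against 1739, 1702 and 1636 CPM in controls (log2 fold change -1.09 ± 0.05, edgeR adjusted p = 2.08e-07). RpS3, which also has a known role in DNA repair, was at 1034, 1058 and 1044 CPM in Myc RNAi, against 1923, 1920 and 1786 CPM in controls, a log2 fold change of -0.84 ± 0.05 that lay at the median of the set. RpS23 (uS12), at the decoding centre, and RpS30, which in mammals is made as a fusion with a ubiquitin-like protein, fell by 0.94 and 0.77 on the log2 scale.

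Of transcripts for proteins near the mRNA exit, that of RpS26 (eS26) fell by more than that of RpS3A (eS1). Both proteins sit on the platform of the subunit. RpS14a and RpS14b, also of the platform, lay between them, with log2 fold changes of -0.97 and -0.70. RpS26, on 2L at 18441335 to 18443277, was at 590, 597 and 594 CPM in Myc RNAi, against 1368, 1317 and 1331 CPM in controls (log2 fold change -1.17 ± 0.04, edgeR adjusted p = 6.78e-08). RpS3A, on chromosome 4 at 65225 to 67207, was at 1444, 1546 and 1456 CPM in Myc RNAi, against 2396, 2401 and 2273 CPM in controls (log2 fold change -0.67 ± 0.05, edgeR adjusted p = 3.79e-06). The fall of RpS26 thus left 44.4% of the control level and that of RpS3A 62.9%. RpS3A was 4.42% of the summed level in controls and 5.16% in Myc RNAi. RpS13 (uS15), which lies close to the platform, fell by 0.77 on the log2 scale.

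Of the proteins where the head of the subunit meets the body, sta encodes the one with the most abundant transcript of the set. The protein is RpSA (uS2), known in mammals as the laminin receptor precursor, and the fly mutant stubarista has short aristae and bristles. sta was at 1929, 1955 and 2144 CPM in Myc RNAi, against 4025, 3875 and 4046 CPM in controls (log2 fold change -0.99 ± 0.05, edgeR adjusted p = 2.54e-07). RpS21 (eS21), whose fly protein is known to bind that of sta, fell to 256, 279 and 270 CPM in Myc RNAi, against 576, 580 and 556 CPM in controls (log2 fold change -1.09 ± 0.05, edgeR adjusted p = 2.26e-07). Both transcripts were thus at about the same fraction of control, 50.5% and 47.0%.

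Among transcripts for proteins of the head, those of RpS27A and RpS12 fell by more than that of RpS29. RpS27A, made as a fusion of ubiquitin with the ribosomal protein eS31, was at 781, 812 and 792 CPM in Myc RNAi, against 1542, 1557 and 1543 CPM in controls (-0.96 ± 0.04). Its exons overlap those of Ip259 on the same strand, so that pairs in the shared part are ambiguous. RpS12 (eS12), which signals Minute cells for elimination in cell competition, was at 592, 568 and 551 CPM in Myc RNAi, against 1180, 1101 and 1048 CPM in controls (-0.96 ± 0.06). RpS29 (uS14), a zinc-binding protein, was at 1170, 1117 and 1161 CPM in Myc RNAi, against 1907, 1824 and 1733 CPM in controls (-0.66 ± 0.05). The head genes RpS15, RpS16, RpS18 and RpS25 had log2 fold changes of -0.84, -0.82, -0.78 and -0.80.

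In the body of the subunit, RpS6 (eS6), whose phosphorylation by S6 kinase is the classical readout of TOR activity, was at 932, 958 and 987 CPM in Myc RNAi, against 1748, 1844 and 1777 CPM in controls. All 3 knockdown libraries lay far below the controls, and the log2 fold change was -0.90 ± 0.04 (edgeR adjusted p = 2.05e-07). Exons of RpS6 overlap those of CR33222 and snoRNA:Or-aca2 on the same strand, so that pairs in the shared part are ambiguous. The other body genes fell as well: RpS24, RpS7 and RpS4 were left at 50.4%, 50.6% and 51.3% of control, and RpS27 at 56.4%.

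The median of the set stayed between -0.88 and -0.69 over 16 alternative settings, and 34 genes were lower in each. The weakest value came with library totals in place of TMM scaling, which moved the median of all genes to 0.13. Relative to the median of all genes the set was at -0.82 under both. A change of scaling shifts all genes nearly alike, so that value cannot tell which scaling is right. The wing disc genes moved with the group: 7 of the 10 had no overlap and were higher in Myc RNAi, against 21.7% of all genes. Of the 10, edgeR called 1 higher, hh. Multiply aligned read pairs were 12.3% to 15.8% of all pairs in Myc RNAi and 9.52% to 10.5% in controls. The part of these differences in the result was not tested. Without control replicate 1 and Psi RNAi replicate 1, the libraries richest in fat body transcripts, the median was -0.82, and without Psi RNAi replicate 1 and Myc RNAi replicate 3, the libraries richest in gut and salivary gland transcripts, it was -0.88.

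Several small-subunit proteins are encoded by 2 genes in flies, and 6 such pairs were set side by side as the share of their joint counts that came from the gene with fewer counts, which does not depend on library scaling. Pairs of reads that align to both copies stand outside the counts, so near-identical stretches contribute nothing to either. The 2 pairs with both copies expressed, RpS14a with RpS14b and RpS15Aa with RpS15Ab, had a higher share of the copy with fewer counts in every Myc RNAi library than in any control. The same held for RpS19a with RpS19b, whose second copy was almost silent. All 12 comparisons (6 pairs in each knockdown) missed the threshold, and 3 libraries against 3 cannot go below an exact p of 0.1.

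RpS14a and RpS14b (uS11, on the platform) lie in tandem on X, at 7933742 to 7934677 and 7934898 to 7935792, with 220 bases between them. RpS14a was at 269, 281 and 281 CPM in Myc RNAi, 580, 531 and 495 CPM in Psi RNAi, with 540, 560 and 527 CPM in controls, a log2 fold change of -0.97 ± 0.06 in Myc RNAi (edgeR adjusted p = 1.47e-06). RpS14b was at 236, 236 and 236 CPM in Myc RNAi, 411, 400 and 368 CPM in Psi RNAi, with 403, 378 and 368 CPM in controls, a log2 fold change of -0.70 ± 0.05 in Myc RNAi (edgeR adjusted p = 5.8e-06). Per kilobase RpS14b was not the lower copy, at 395 RPKM in Myc RNAi, 658 RPKM in Psi RNAi and 641 RPKM in controls, and RpS14a was at 316 RPKM in Myc RNAi, 610 RPKM in Psi RNAi and 618 RPKM in controls. RpS14b took 46.7%, 45.6% and 45.7% of the joint counts in Myc RNAi, 41.5%, 43.0% and 42.6% in Psi RNAi, and 42.8%, 40.3% and 41.1% in controls. The Myc RNAi shares did not overlap the controls (4.61 percentage points higher on average, exact permutation test, two-sided, p = 0.1, adjusted p = 0.4, n = 3 each), and the Psi RNAi shares did (exact p = 0.3, adjusted p = 0.514).

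RpS15Aa (uS8, in the body, X at 13335637 to 13337705) was at 789, 826 and 811 CPM in Myc RNAi, 1428, 1428 and 1361 CPM in Psi RNAi, with 1417, 1440 and 1373 CPM in controls. Its copy RpS15Ab (2R at 10821676 to 10822399), with a single exon, was at 88.2, 95.3 and 85.0 CPM in Myc RNAi, 121, 123 and 109 CPM in Psi RNAi, with 115.2, 123 and 116 CPM in controls. The log2 fold changes in Myc RNAi were -0.80 ± 0.04 for RpS15Aa (edgeR adjusted p = 3.01e-07) and -0.40 ± 0.06 for RpS15Ab (edgeR adjusted p = 0.00089), and the 95% interval of the second, -0.54 to -0.26, did not reach the first. With library totals in place of TMM scaling RpS15Ab was at -0.25 and still called (edgeR adjusted p = 0.00729, the highest of 16 alternatives, whose lowest was 5.63e-07). RpS15Ab took 10.1%, 10.3% and 9.49% of the joint counts in Myc RNAi, 7.83%, 7.91% and 7.40% in Psi RNAi, and 7.52%, 7.88% and 7.78% in controls. The Myc RNAi shares again lay above all controls (by 2.24 percentage points, exact permutation test, two-sided, p = 0.1, adjusted p = 0.4, n = 3 each). Counting error was smaller than this gap, at up to 0.361 percentage points on either side (Wilson, 95%).

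**Figure D3:**
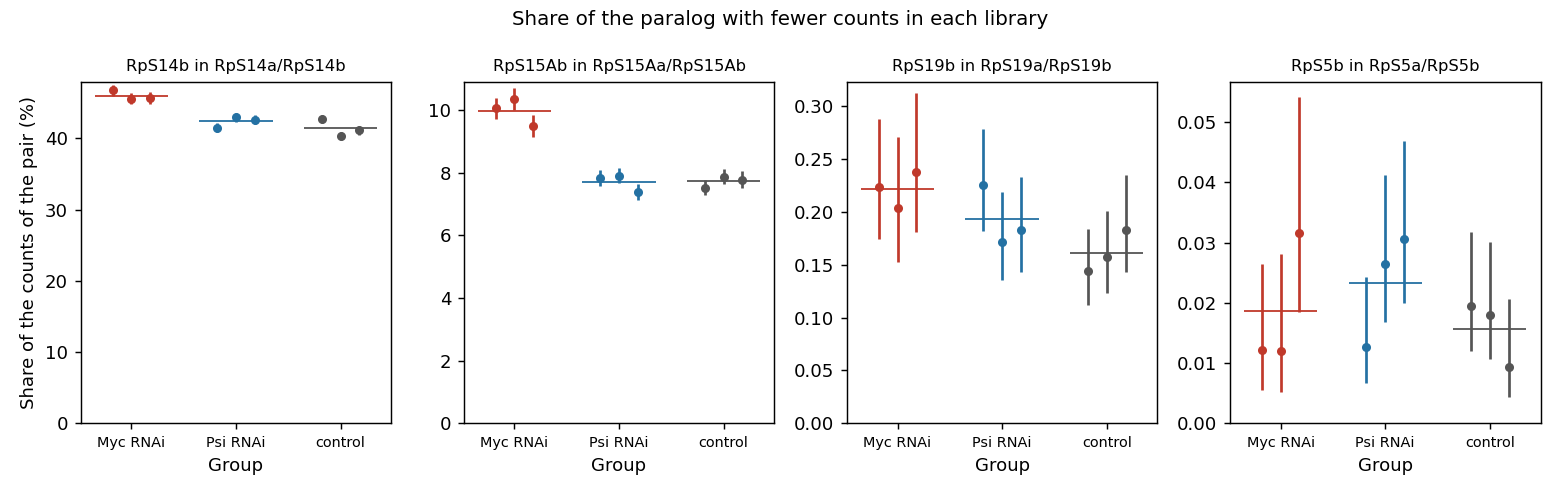
Share of the joint counts of a gene pair (%) that came from the gene with fewer counts, in each library of Myc RNAi, Psi RNAi and control, with 95% Wilson intervals for counting error and a line at each group mean; every axis starts at 0 and has its own scale. RpS14b averaged 46.0%, 42.4% and 41.4% and RpS15Ab 9.96%, 7.71% and 7.73% in Myc RNAi, Psi RNAi and control, while RpS19b and RpS5b stayed below 0.24% and 0.04% in every library.

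The other 4 pairs were almost wholly 1 gene. RpS5b and RpS19b are known from the ovary and germ line, and 6 germ line genes summed to 1.49 to 1.83 CPM in Myc RNAi, 2.33 to 3.06 CPM in Psi RNAi and 1.68 to 2.24 CPM in controls, with vas at 0.458 to 0.986 CPM. RpS19a (eS19, whose human gene is mutated in Diamond-Blackfan anaemia) was at 767, 753 and 758 CPM in Myc RNAi, 1356, 1351 and 1274 CPM in Psi RNAi, with 1325, 1302 and 1290 CPM in controls, a log2 fold change of -0.78 ± 0.04 in Myc RNAi. RpS19b was at 1.72, 1.53 and 1.80 CPM in Myc RNAi, 3.06, 2.33 and 2.33 CPM in Psi RNAi, with 1.90, 2.05 and 2.37 CPM in controls, and its log2 fold change in Myc RNAi, -0.32 ± 0.22, did not pass (edgeR adjusted p = 0.314). Its share was 0.224%, 0.203% and 0.238% in Myc RNAi, 0.225%, 0.172% and 0.183% in Psi RNAi, and 0.144%, 0.158% and 0.183% in controls (exact permutation test of Myc RNAi against control, two-sided, p = 0.1, adjusted p = 0.4, n = 3 each).

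RpS5a (uS7) was at 1394, 1384 and 1453 CPM in Myc RNAi, 2541, 2534 and 2495 CPM in Psi RNAi, with 2480, 2465 and 2425 CPM in controls, a log2 fold change of -0.80 ± 0.03 in Myc RNAi. RpS5b had 5 to 21 pairs per library, at 0.169, 0.167 and 0.460 CPM in Myc RNAi, 0.324, 0.669 and 0.765 CPM in Psi RNAi, with 0.484, 0.442 and 0.229 CPM in controls, with groups that overlap (log2 fold change -0.56 ± 0.56 in Myc RNAi, edgeR adjusted p = 0.493). RpS10b (eS10) was at 692, 704 and 741 CPM in Myc RNAi, 1412, 1329 and 1313 CPM in Psi RNAi, with 1390, 1353 and 1324 CPM in controls, a log2 fold change of -0.93 ± 0.04 in Myc RNAi. Its single-exon copy RpS10a reached at most 0.126 CPM. RpS28b (eS28) was at 664, 667 and 652 CPM in Myc RNAi, 1149, 1094 and 988 CPM in Psi RNAi, with 1089, 1085 and 1000 CPM in controls (-0.68 ± 0.06 in Myc RNAi), and RpS28-like had 2 pairs in all 9 libraries together, where a count of 0 allows a share of up to 0.0163% of the pair at the lowest depth.

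The next comparison asked the same of Psi knockdown. Here the expressed genes stood at 95.4% to 114% of control. The 34 expressed genes had log2 fold changes between -0.07 for sta and 0.19 for RpS23, and their 95% intervals lay within -0.17 and 0.28, so that a change of the size seen in Myc RNAi was outside every one. Of the 36 tested genes, 0 were called in either direction at an edgeR adjusted p below 0.01 (4 had an unadjusted p below 0.05, or 11.1%, against 27.5% of all genes, and DESeq2 called 2, RpS23 and RpS20, both higher), against 1.8% of all genes higher and 2.27% lower by edgeR, and 4.64% higher and 4.37% lower by DESeq2. The median was 0.04, against -0.01 over all genes.

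The smallest p was that of RpS23, whose product sits at the decoding centre. It was at 1899, 1961 and 1790 CPM in Psi RNAi, against 1700, 1654 and 1601 CPM in controls. The groups did not overlap, and the log2 fold change was 0.19 ± 0.04 (edgeR adjusted p = 0.0221, DESeq2 adjusted p = 3.26e-05). Over 16 alternatives its log2 fold change ranged between 0.16 and 0.22, and it was called in DESeq2 alone, with adjusted p between 3.26e-05 and 0.098. RpS20 came next, at 1178, 1191 and 1142 CPM in Psi RNAi, against 1107, 1101 and 1085 CPM in controls (0.09 ± 0.03, edgeR adjusted p = 0.11, DESeq2 adjusted p = 0.0019, range over alternatives 0.0019 to 0.339). RpS7 (eS7) was at 2570, 2556 and 2418 CPM in Psi RNAi, against 2345, 2381 and 2366 CPM in controls (0.09 ± 0.04, edgeR adjusted p = 0.166), and RpS18 (uS13) at 1592, 1552 and 1483 CPM in Psi RNAi, against 1448, 1468 and 1434 CPM in controls (0.09 ± 0.04, edgeR adjusted p = 0.174). With RpS5a, these 4 made up the 5 genes with all 3 Psi RNAi libraries above the controls, while sta alone lay below, against 16.4% of all genes each way.

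Other genes singled out by the naming rule were not called in Psi RNAi. RpS3 was at 1943, 1942 and 1795 CPM in Psi RNAi, against 1923, 1920 and 1786 CPM in controls, and RpS6 at 1846, 1893 and 1797 CPM in Psi RNAi, against 1748, 1844 and 1777 CPM in controls. RpS12 was at 1179, 1114 and 1055 CPM in Psi RNAi, against 1180, 1101 and 1048 CPM in controls, and RpS27A at 1674, 1668 and 1528 CPM in Psi RNAi, against 1542, 1557 and 1543 CPM in controls. In all of these the groups overlapped. sta was at 3828, 3739 and 3830 CPM in Psi RNAi, against 4025, 3875 and 4046 CPM in controls, a difference of -0.07 ± 0.04 that did not pass (edgeR adjusted p = 0.362). The genes that changed most or least in Myc RNAi had log2 fold changes in Psi RNAi of 0.02 for RpS26, 0.03 for RpS21, 0.06 for RpS9, -0.01 for RpS2, 0.07 for RpS3A and 0.05 for RpS29, all with groups that overlapped. The almost silent RpS19b and RpS5b were at 0.29 ± 0.22 and 0.59 ± 0.54, and their groups overlapped as well.

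The tested genes leaned one way in Psi RNAi, with 30 of 36 above 0, against 47.7% of all genes, but the libraries of the group did not agree in it. Relative to the control means, the 34 expressed genes had medians of 0.09, 0.06 and -0.02 in the 3 Psi RNAi libraries, with 33, 29 and 10 genes above 0. Psi RNAi replicate 1 was also the library richest in gut transcripts, with the protease gene Jon65Aiv at 1093 CPM, whose part in the result was not tested. The median of the tested genes, 0.04, was 0.02 without that library, with or without Myc RNAi replicate 3, 0.03 without Psi RNAi replicate 2, 0.06 without control replicate 1 and 0.08 without Psi RNAi replicate 3.

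Myc RNAi set against Psi RNAi, a contrast that shares its libraries with those above, gave 34 of 36 genes lower and 0 higher, against 12.8% lower and 9.53% higher of all genes, with a median of -0.92. The smallest p was that of RpS20, at 452, 461 and 460 CPM in Myc RNAi, against 1178, 1191 and 1142 CPM in Psi RNAi (-1.35 ± 0.03, edgeR adjusted p = 3.99e-08). RpS15Ab again differed least among the expressed genes (-0.39 ± 0.06, edgeR adjusted p = 0.000891), and its call was the only one lost, without Psi RNAi replicate 1 and Myc RNAi replicate 3 (edgeR adjusted p = 0.0143, where the other alternatives reached down to 4.74e-07).

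Added together, the 38 transcripts made up 2.87% ± 0.04 of the scaled library total in Myc RNAi, 5.47% ± 0.19 in Psi RNAi and 5.32% ± 0.09 in controls (SD, n = 3). The sums were 28247, 28870 and 28992 CPM in Myc RNAi, 56169, 55380 and 52644 CPM in Psi RNAi, with 53981, 53576 and 52179 CPM in controls. The Myc RNAi sum was 0.539 of the control sum and the Psi RNAi sum 1.03. No test was made of these sums.

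**Figure D4:**
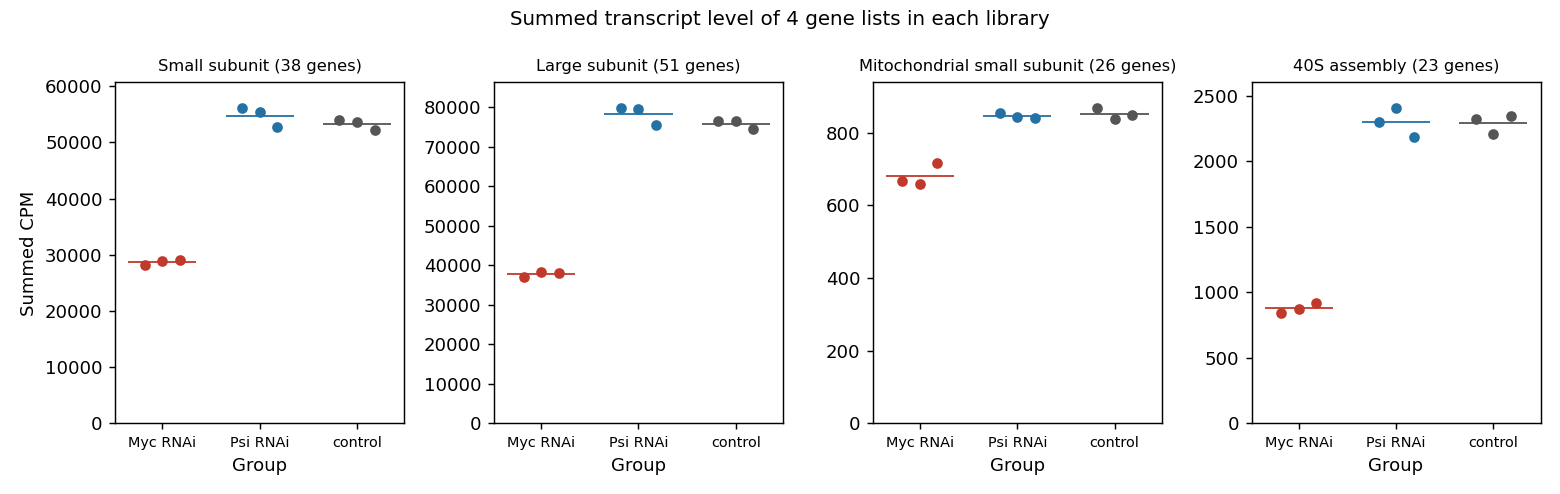
Summed CPM of 4 gene lists in each library (points) with group means (lines) for Myc RNAi, Psi RNAi and control, each panel starting at 0 with its own scale. Small-subunit genes sum to 28247 to 28992 CPM in Myc RNAi, against 52179 to 53981 CPM in controls. The Myc RNAi mean is 0.539 of the control mean for the small subunit, 0.499 for the large subunit, 0.8 for the mitochondrial small subunit and 0.383 for 40S assembly. The last ratio leans on Fib, Nop56, nop5 and hoip (241, 305, 370 and 118 of 2291 CPM in controls), left at 22.1% to 28.7% of control. The median log2 fold change of the 40S assembly list was -1.08.

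Other genes of the ribosome give the frame for these values. All 51 large-subunit genes (symbols starting with RpL) were tested, and all 51 had a negative log2 fold change in Myc RNAi, with a median of -0.99. At an edgeR adjusted p below 0.01, 49 were called lower, against 11.4% of all genes. In Psi RNAi 0 were called, against 1.8% of all genes higher and 2.27% lower, and the median was 0.04. All 26 mitochondrial small-subunit genes had a negative log2 fold change in Myc RNAi, with a median of -0.31, and 14 of the 26 were called lower. In Psi RNAi 0 were called by edgeR (1 of 26 had an unadjusted p below 0.05, and 10 of 51 large-subunit genes, or 3.85% and 19.6%, against 27.5% of all genes). In Psi RNAi DESeq2 called 6 of the 51 large-subunit genes higher and 0 lower, and 0 of the mitochondrial genes, against 4.64% of all genes higher and 4.37% lower. The summed levels of the mitochondrial genes were 659 to 718 CPM in Myc RNAi, against 838 to 869 CPM in controls.

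The 23 listed genes of 40S assembly, which process and modify pre-rRNA or export the pre-40S particle, all fell in Myc RNAi. Their median was -1.08 and their range -2.18 to -0.65, and edgeR called all 23 lower, against 11.4% of all genes. In Psi RNAi 0 were called by edgeR or DESeq2. Over all genes edgeR called 1.8% higher and 2.27% lower, and DESeq2 4.64% and 4.37%. The median there was -0.06, and 2 genes, or 8.7%, had an unadjusted p below 0.05, against 27.5% of all genes. In 7 of the 23 (30.4%) the log2 fold change was above 0, against 47.7% of all genes. In 6 (26.1%) all Psi RNAi libraries lay below all controls, and in 0 above, against 16.4% of all genes each way. Fib, the fibrillarin methyltransferase of box C/D snoRNPs, was at 52.0, 55.3 and 56.8 CPM in Myc RNAi, against 254, 231 and 240 CPM in controls (-2.14 ± 0.05). nop5, of the same particles, was at 84.0, 95.3 and 91.3 CPM in Myc RNAi, against 369, 361 and 382 CPM in controls (-2.04 ± 0.07), and bys, the fly bystin, at 24.9, 25.7 and 25.3 CPM in Myc RNAi, against 71.8, 70.8 and 73.0 CPM in controls (-1.51 ± 0.05). Each of these 3 log2 fold changes was further below 0 than that of RpS20.

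Around RpS6 and RpS12 the picture was mixed. Of 7 genes of the 40S-bound and TOR-S6 kinase list, 6 had a negative log2 fold change in Myc RNAi and 2 were called lower, against 11.4% of all genes. Rack1, a scaffold protein bound to the head of the 40S subunit, was at 1397, 1435 and 1454 CPM in Myc RNAi, against 2896, 2921 and 2750 CPM in controls (50.0% of control, edgeR adjusted p = 8.86e-08), and S6k, the kinase of RpS6, at 94.8, 89.0 and 86.8 CPM in Myc RNAi, against 129, 126 and 126 CPM in controls (-0.49 ± 0.04). S6kII, Tor, raptor, rictor and Thor did not pass. Xrp1, the bZIP factor induced in Minute cells through RpS12, rose to 1521, 1265 and 1353 CPM in Myc RNAi, against 612, 609 and 587 CPM in controls (1.19 ± 0.09, edgeR adjusted p = 5.62e-06). Its partner Irbp18, listed as CG6272, rose to 29.7, 22.3 and 26.1 CPM in Myc RNAi, against 16.2, 14.1 and 13.5 CPM in controls (0.84 ± 0.11, edgeR adjusted p = 0.000462). In Psi RNAi 0 of these 9 genes were called by edgeR, against 1.8% of all genes higher and 2.27% lower. DESeq2 also called 0, against 4.64% higher and 4.37% lower. With 9 genes, 0 calls is near these shares. An unadjusted edgeR p below 0.05 was found for 0 of the 9, against 27.5% of all genes. Xrp1 was at 656, 660 and 546 CPM in Psi RNAi.

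Features of the genes outside the choice of the set were described last. In the reference annotation 13 members hold 43 snoRNA genes within their bounds, most in RpS5a (14) and RpS7 (7). Their median log2 fold change in Myc RNAi was -0.96 over the 13, against -0.84 over the other 21 expressed genes, and the ranges overlapped, at -1.26 to -0.66 and -1.17 to -0.40. By chromosome arm the medians were -1.08 on 2L (5 genes), -0.96 on 3L (4), -0.84 on 3R (8), -0.82 on 2R (7) and -0.80 on X (9), and the single gene on chromosome 4 was RpS3A at -0.67. Across the 34 expressed genes the change in Myc RNAi had a Pearson correlation of -0.19 with exonic length and -0.34 with log2 control RPKM. The second was 0.01 without RpS15Ab (n = 33), so that it rested on that gene.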

How the data were processed

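RNA-seq was analysed in 9 libraries from stranded poly(A) preparations. Per the labels and the file headers, the authors deposited counts of read pairs per gene, 1 library per file, made with HTSeq 0.6.1 after alignment by TopHat2 2.1.1 (quality control by FastQC 0.11.6) to a FlyBase Release 6 genome. The strand setting of the counting is named only by a reverse-strand tag in the names of the count files. So 7 members whose exons overlap a gene on the other strand are uncertain, among them RpS9, RpS10b, RpS15, RpS20, RpS28b and RpS29. On the same strand 3 members share exonic bases with another gene, and pairs in those parts are ambiguous. From the authors' tables, made with DESeq2 1.12.0, only gene IDs and symbols were taken. Those tables also hold fold changes and p-values, and the rMATS tables inclusion differences, and 48 columns of values per library were not used. Summary lines, 5 per file, entered neither totals nor tests. Of all pairs, 1.28% to 1.90% lay in no gene, 1.52% to 1.80% were ambiguous and 9.52% to 15.8% aligned more than once.

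The main test was that of edgeR 4.0.16 under R 4.3.3 (TMM, filterByExpr, robust quasi-likelihood fit over all 9 libraries, no covariate, Benjamini-Hochberg over 9235 genes, called below 0.01). The biological coefficient of variation was 23.0%. Errors are standard errors on log2 fold changes and standard deviations elsewhere, and intervals are at 95%. Intervals on shares and limits from a count of 0 (3 counts) cover counting error only. Expressed members had 2403 to 133139 counts per library. Exact permutation tests used Python 3 with adjustment over 12 tests. Positions and exonic lengths are from the Ensembl annotation of the Release 6 assembly. 2 members were matched to it by symbol. Values of 3 members are not reported here singly and are not drawn; they stand in all counts, medians and sums. The scripts were tested on simulated data.

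The members, lists and naming rule were chosen with earlier results of these data known. Values per library are given for the 5 most and 5 least negative members in Myc RNAi, the 4 of smallest p in Psi RNAi, the member of smallest p between the knockdowns, every gene of a pair, sta, RpS3, RpS6, RpS12 and RpS27A, and up to 4 genes per list. Same-numbered Myc RNAi and control libraries deviated together from their group means (correlations across genes of 0.309, 0.232 and 0.442), which was taken as pairing. It rests on the data alone, and the main test and the exact tests did not use it. For Psi RNAi and control the correlations were 0.304, 0.0901 and 0.212, and those were not taken as paired. Summed fat body transcripts fell with the replicate number in every group (2412, 1047 and 801 CPM in Myc RNAi, 6643, 740 and 252 CPM in Psi RNAi, 10903, 3563 and 686 CPM in controls). Their part in these correlations was not tested.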

Additional observations from a re-analysis of the deposited data

How the results depend on the processing

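Each comparison was refitted with DESeq2 1.42.0, RLE scaling, library totals, TMM without ribosomal protein genes, no filter, a filter of 10 CPM in 3 libraries, only the 2 groups, the replicate number as a block, and without single libraries or pairs of them. In Myc RNAi against control 34 members were lower in every setting, the replicate block included, and the median of the tested members was -0.82 with DESeq2, -0.82 with RLE scaling, -0.69 with library totals, -0.88 to -0.82 with single libraries left out, -0.82 without control replicate 1 and Psi RNAi replicate 1, and -0.88 without the libraries richest in gut and salivary gland transcripts, a setting chosen after seeing the data. In Myc RNAi against Psi RNAi the median was -0.76 with library totals, -0.89 with the filter of 10 CPM, -0.93 to -0.89 with single libraries left out, -0.89 without control replicate 1 and Psi RNAi replicate 1, and -0.89 without the libraries richest in gut and salivary gland transcripts. Library totals moved the median of all genes by 0.15 in both contrasts, and among all genes called in Myc RNAi against control, 2015 were then higher and 717 lower, where TMM scaling gave 702 higher and 1052 lower. The number of members called in Psi RNAi was 2 with DESeq2 and 0 otherwise. With DESeq2 RpS23 (0.20) and RpS20 (0.10) passed. The summed level by library totals was 30799 CPM in Myc RNAi, 52815 CPM in Psi RNAi and 51357 CPM in controls.

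Values near 0 in Psi RNAi changed sign, and none of these was called. With DESeq2, RLE scaling and only the 2 groups, the log2 fold changes were 0.0036, 0.0036 and 0.0035 for RpS10b, 0.0037, 0.0037 and 0.0033 for RpS15Aa, and 0.0021, 0.0019 and 0.0016 for RpS15Ab. Without the libraries richest in gut and salivary gland transcripts they were -0.0329 for RpS12, -0.0239 for RpS28b and -0.0062 for RpS3, and without control replicate 1 and Psi RNAi replicate 1 -0.0033 for RpS28b. With single libraries or that pair left out, the ranges were -0.0368 to 0.0149 for RpS10b, -0.0327 to 0.0540 for RpS12, -0.0843 to 0.0332 for RpS14a, -0.0170 to 0.0174 for RpS15Aa, -0.0472 to 0.0461 for RpS15Ab, -0.0236 to 0.0831 for RpS28b and -0.0141 to 0.0490 for RpS3. With the replicate number as a block over all 9 libraries, Psi RNAi included, Myc RNAi against control kept all 34 calls (median -0.84). No call of a member changed in any contrast with this block. No fit paired Myc RNAi with control alone. The exact tests of shares could not reach 0.05, and with only the 2 pairs of at least 100 counts in every library the lowest adjusted p was 0.2. The planned search for promoter motifs was not run, since it needs sequence that was not used here. The depth limited the almost silent copies: RpS5b had 5 to 21 counts and RpS19b 46 to 85.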
